A study of Homo sapiens with 2 samples.

Results

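Translation initiation factors, elongation factors and aminoacyl tRNA synthetases were examined in KYSE-170 cells, an established human oesophageal squamous carcinoma cell line, after transfection with 1 of 2 oligoribonucleotides. The genes were chosen by name: a current symbol starting with EIF or EEF and a digit, or a synthetase symbol made of 1 letter (or EP) and ARS, ARS1 or ARS2. This gave 73 genes, measured by 78 probes, of the 12445 named genes on the array. The 5 probes of Argonaute genes that the platform still calls EIF2C were left out. In the names used below, EIF2S1, EIF2S2 and EIF2S3 are the alpha, beta and gamma subunits of eIF2, and eIF and eEF stand for the initiation and elongation factors.

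Both groups were KYSE-170 cells of the same culture medium, transfected with the same reagent, Hiperfect. One received an oligoribonucleotide called ncRNA, whose sequence the labels do not give, and the other an oligoribonucleotide for miR-210. Each group was 1 sample on 1 array, so nothing below has a replicate and no p-value was computed. The labels give neither the dose nor the time after transfection. Of 8 squamous epithelial markers named on the array, 6 were above the array median on both arrays. The others were TP63, at 57 and 22, and PKP1, at 30 and 49. The array medians were 39 (ncRNA) and 36 (miR-210). Of the markers of other cells, 1 of 4 leukocyte, 1 of 5 fibroblast and 1 of 4 endothelial genes were above the median on both arrays: CD79A at 133 and 126, DCN at 183 and 181, and VWF at 126 and 103. These are the brighter readings, and the other probe of VWF read 21 and 30. The endothelial gene KDR, at 66 and 36, was above the median with ncRNA only. The remaining markers of other cells were under it on both arrays. Among them were the leukocyte gene PTPRC at 9 and 10, the collagen gene COL1A1 at 21 and 16 and the endothelial gene PECAM1 at 21 and 9. What part such cells or probes had in the results was not tested. In a bulk sample, fewer cells of a type and less RNA per cell cannot be told apart.

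Protein synthesis starts when eIF2, carrying the initiator tRNA and GTP, joins the small ribosomal subunit together with eIF1A, eIF3 and eIF5, and the eIF4 factors bring in the capped mRNA. The exchange factor eIF2B recharges eIF2 with GTP, and stress kinases that phosphorylate the alpha subunit of eIF2 block that exchange. Elongation factors then deliver charged tRNAs and move the ribosome along, while each aminoacyl tRNA synthetase joins 1 amino acid to its tRNAs, in the cytosol or in mitochondria. A microRNA is loaded into Argonaute and pairs with target mRNAs mainly through its seed, bases 2 to 8 from the 5′ end. miR-210 is a microRNA known from the response to low oxygen.

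The mature sequences of miR-210 are shown as background, and no result below was computed from them. The labels do not say which arm of the hairpin was used, so both mature forms are given from RefSeq (GRCh38.p14), 5′ to 3′, with the seed in capitals. They are encoded on the minus strand at chr11:568112-568133 (3p) and chr11:568150-568171 (5p).
hsa-miR-210-3p: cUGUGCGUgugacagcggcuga
hsa-miR-210-5p: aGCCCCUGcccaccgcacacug

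Most of these genes differed little between the arrays. Values are deposited intensities, and differences are quantile normalized log2 ratios, always miR-210 over ncRNA. Of the 73 genes, 65 passed a filter on level (an intensity of about 37.5) and 8 did not. Among the 65, only EIF2S1 was at least 2-fold higher with miR-210 (1.54%), where 3.02% of all 6681 genes kept were. At least 2-fold lower were EIF4A2, AARS2 and EIF2S3, 3 of 65 (4.62%), beside 3.17% of all genes. These shares lie near the background. The median log2 ratio of the 65 genes was 0.083, against 0.0084 for all genes, and both sets had a SD of 0.54 across genes. A ratio above 0 was seen for 38 of the 65 genes (58.5%), beside 50.8% of all genes. On the deposited scale, without normalization, the median of all genes shifted to -0.12, and that of the translation genes was -0.081. On that scale 25 of 65 were above 0, beside 39.65% of all genes.

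The only error at hand is the spread between probes of 1 gene, from 251 genes with 2 or more kept probes. It is given as the SD of a single probe around its gene, 0.44 on the log2 scale. It covers probe error and leaves out differences between cultures and arrays. By this measure 10 of the 65 genes were higher by more than 0.44 (15.4%), where 17.9% of all genes were. Another 9 were lower by more than 0.44 (13.8%), beside 16.8% of all genes. The remaining 46 lay within it. The plot of ratios by role shows that the distant genes came from different complexes and that single members stood out, not whole complexes.

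**Figure D1:**
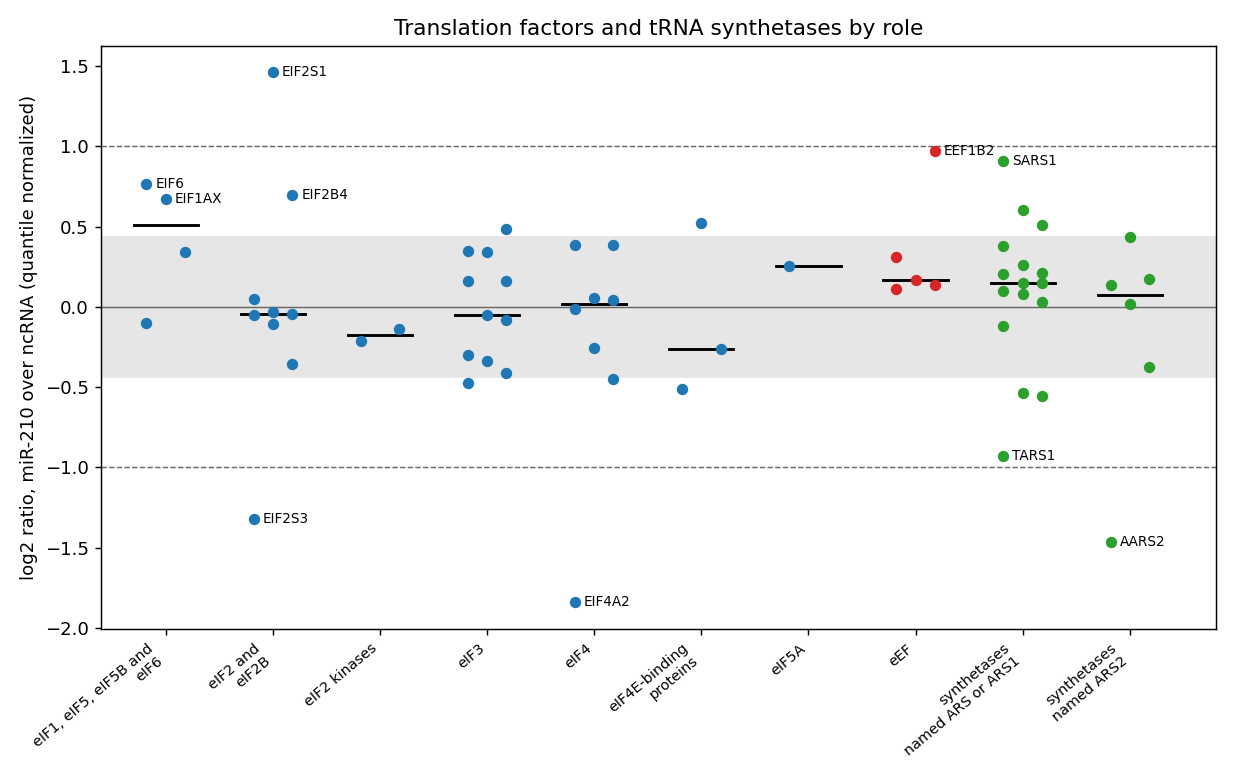
Each point is 1 gene, with its quantile normalized log2 ratio of miR-210 over ncRNA (1 array each) on the vertical axis and its role on the horizontal axis. Short black lines are group medians, the grey band is the spread between probes of 1 gene (SD 0.44 either way) and dashed lines mark 2-fold; EIF2S1 lies above the upper line and EIF4A2, AARS2 and EIF2S3 below the lower one.

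The subunits of eIF2 gave opposite readings. EIF2S1, the subunit that the stress kinases phosphorylate, read 58 with ncRNA and 148 with miR-210. Its log2 ratio was 1.46, or 2.75-fold higher with miR-210, the highest of all 65 genes. EIF2S3, the subunit that binds GTP and the initiator tRNA, read 834 and 304. Its log2 ratio was -1.32, or 2.5-fold lower, rank 90 from the lowest of all genes kept. EIF2S2 read 6056 and 4994, a log2 ratio of -0.053. So the alpha subunit was high and the gamma subunit low on the miR-210 array, with the beta subunit near 0 on the normalized scale and at -0.28 on the deposited one. Each of these genes had 1 probe. EIF2S1 was weak with ncRNA, at 58 against an array median of 39, and with 10 added to every value its ratio was 1.31, still past 2-fold.

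The 5 subunits of eIF2B, the exchange factor of eIF2, were all kept. EIF2B4 (delta) read 237 and 356, a log2 ratio of 0.70, past the spread between probes. The other four lay within it, between -0.11 for EIF2B3 (624 and 541) and 0.047 for EIF2B1 (222 and 213). EIF2D, a factor that can deliver tRNA to the ribosome apart from eIF2, read 328 and 237, a log2 ratio of -0.35. The kinases that act on eIF2 were near 0. EIF2AK3 (PERK), the kinase of endoplasmic reticulum stress, read 194 and 163, a log2 ratio of -0.14. EIF2AK4 (GCN2), which senses uncharged tRNA, read 108 and 86, a log2 ratio of -0.21. EIF2AK1, taken as the haem-regulated kinase, was under the level filter at 26 and 20. No probe carried the name EIF2AK2, another kinase of eIF2.

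EIF4A2 had the lowest ratio of all 65 genes. It encodes a DEAD-box RNA helicase that unwinds the start of mRNAs as part of the cap-binding complex. Its brighter probe read 1955 with ncRNA and 493 with miR-210. The log2 ratio was -1.84, that is 3.58-fold lower, rank 28 from the lowest of all genes kept. Its other probe read 944 and 463, a log2 ratio of -0.91, that is 1.88-fold lower. Both probes were low with miR-210, and they differed in size by more than the SD of a single probe, 0.44. The spread of a difference between 2 probes is wider than that SD. The mean of both was -1.37. The near-identical paralog EIF4A1 was not among the named probes used here, and how far these probes pick up its mRNA was not tested. EIF4A3, the related helicase of the exon junction complex, went slightly the other way, at 3402 and 3866, a log2 ratio of 0.39.

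Of the other 7 kept eIF4 genes, 6 had log2 ratios between -0.25 and 0.39 at their brightest probe, inside the probe SD of 0.44, and EIF4G2 was lower. The cap-binding protein EIF4E read 1397 and 1281, a log2 ratio of 0.045. The scaffold EIF4G1 read 842 and 796, a log2 ratio of 0.057, and its relative EIF4G3 read 111 and 134, a log2 ratio of 0.39. EIF4G2 (DAP5), a scaffold without the EIF4E-binding site, read 9861 and 6113, a log2 ratio of -0.45, just past the spread between probes, and -0.69 on the deposited scale. EIF4B, a helper of the helicase, read 3551 and 2576, a log2 ratio of -0.25. EIF4H, another helper, had 2 probes that disagreed, with log2 ratios of -0.011 (2625 and 2325) and -0.66 (415 and 243). EIF4E3, a relative of the cap-binding protein, read 40 and 9 and was under the level filter, so its size has no reliable estimate. The proteins that hold EIF4E back split: EIF4EBP1 read 437 and 279 (log2 ratio -0.51) and EIF4EBP2 read 618 and 818 (log2 ratio 0.52). EIF4ENIF1, which carries EIF4E into the nucleus, read 133 and 103, a log2 ratio of -0.26.

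**Figure D2:**
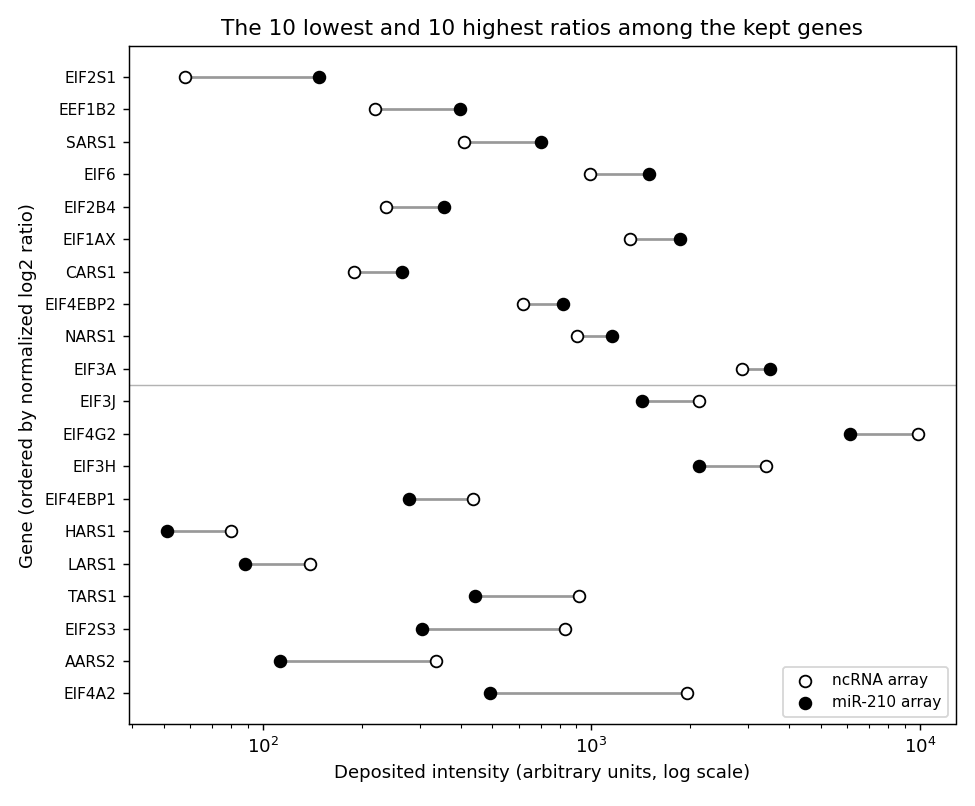
Deposited intensities (log axis) of the 10 genes with the highest and the 10 with the lowest normalized log2 ratios among the 65 kept, ordered by that ratio; open circles are the ncRNA array and filled circles the miR-210 array, 1 array each. EIF4A2 (1955 and 493) and AARS2 (336 and 113) have the widest gaps in the lower block, and EIF2S1 (58 and 148) has the widest in the upper block.

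The large scaffold eIF3, which holds the small ribosomal subunit open for mRNA, was measured through 11 subunits, all kept. None reached 2-fold, and 5 were above 0 and 6 under it, where 50.8% of all genes were above 0. The highest was EIF3A, at 2866 and 3486, a log2 ratio of 0.48. The lowest was EIF3H, at 3391 and 2125, a log2 ratio of -0.48. Next to it stood EIF3J, a loosely attached subunit, at 2127 and 1424, a log2 ratio of -0.41. The core subunits EIF3B (2643 and 2603) and EIF3C (6160 and 4995) stood at 0.16 and -0.079. Of the rest, EIF3I, EIF3F and EIF3G lay above 0 at 0.35, 0.34 and 0.16, and EIF3L, EIF3K and EIF3D under it at -0.34, -0.30 and -0.054. The SD over the 11 subunits was 0.34, and 81.8% lay within the spread between probes. Over the 1478 genes kept in the same range of levels the SD was 0.48 and the share 72.5%. On the deposited scale 7 of the 11 were under 0, with a median of -0.22, against -0.12 for all genes. That comparison is uneven, because the shift between the arrays was larger for bright genes. EIF3C stood at -0.079 normalized and -0.30 deposited, and the dim gene MARS1 at 0.083 and -0.021. With loess scaling on level the eIF3 median was -0.041.

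Among the remaining initiation factors, 3 of 4 kept genes were above 0 on every scaling tried. EIF6, which keeps the large ribosomal subunit from joining too early, read 991 and 1500, a log2 ratio of 0.76. EIF1AX, which helps select the start codon, read 1314 and 1855, a log2 ratio of 0.67. EIF5, the GTPase activator of eIF2, read 1487 and 1663, a log2 ratio of 0.34, within the spread between probes. EIF5B, which joins the subunits, read 742 and 636, a log2 ratio of -0.099. The Y-linked copy EIF1AY was under the level filter and its values are not given. EIF5A2, a form of eIF5A that helps the ribosome past difficult peptide bonds, read 821 and 881, a log2 ratio of 0.25.

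The 5 kept elongation factor genes all had log2 ratios above 0 after quantile normalization, where 50.8% of all genes did. On the deposited scale, however, 2 were above 0, 2 under it and EEF2 at 0, where 39.65% of all genes were above 0. EEF1B2, a nucleotide exchange factor of eEF1A, was the highest. Its brighter probe read 220 and 397, a log2 ratio of 0.97 or 1.96-fold higher, and its other probe read 100 and 133, a log2 ratio of 0.52. Both probes were high with miR-210 by more than the spread between probes. Its partners in the same exchange complex were close to 0: EEF1D read 4286 and 4231 (log2 ratio 0.17) and EEF1G read 6189 and 5846 (log2 ratio 0.13). EEF1E1, a component of the multi-synthetase complex despite its name, read 1348 and 1480, a log2 ratio of 0.31. EEF2, which moves the ribosome along the mRNA, read 74 on both arrays, a log2 ratio of 0.11. That is a weak signal, beside array medians of 39 (ncRNA) and 36 (miR-210). EEF1A2 (32 and 40) and the kinase EEF2K (17 and 22) were under the level filter.

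**Figure D3:**
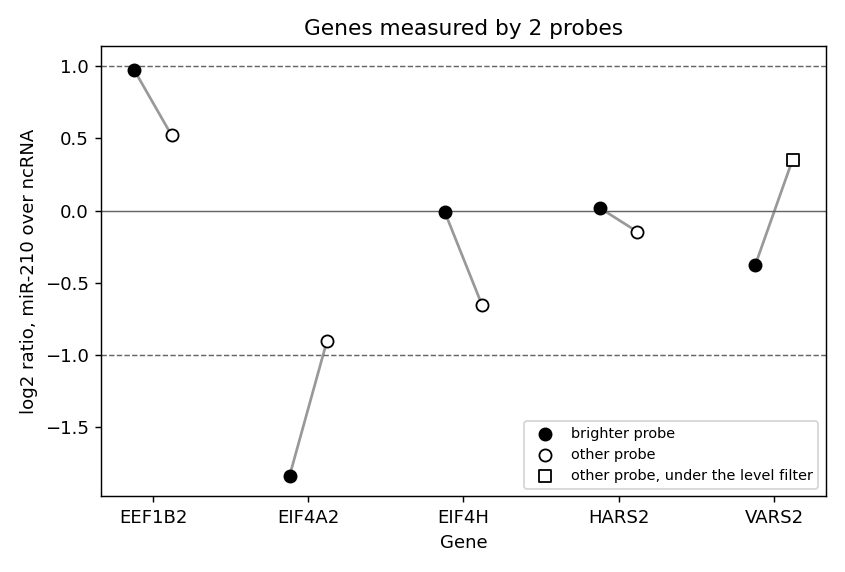
Log2 ratios of miR-210 over ncRNA (vertical axis) for the 5 genes with 2 probes; filled circles are the brighter probe, open circles the other probe and the open square a probe under the level filter. The probes of EIF4A2 lie at -1.84 and -0.91 and those of EEF1B2 at 0.97 and 0.52. The probes taken as HARS2 and as VARS2 fall on either side of 0. Their platform names also fit DTD1 and VARS1, so each of these pairs may not be 1 gene.

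All 16 synthetases named ARS or ARS1, most of them cytosolic, passed the level filter, and none reached 2-fold after normalization. The median log2 ratio was 0.15, with 12 above 0 and 4 under it, where 50.8% of all genes were above 0. On the deposited scale the median was -0.027, with 7 above 0 and 9 under it, where 39.65% of all genes were above 0. On both scales 12 of the 16 lay above the median of all genes. SARS1, the seryl enzyme (SARS on the platform), was the highest, at 410 and 704, a log2 ratio of 0.91 or 1.88-fold higher. CARS1, the cysteinyl enzyme, read 190 and 265, a log2 ratio of 0.60. NARS1, the asparaginyl enzyme, read 904 and 1153, a log2 ratio of 0.51. These 3 of 16 were high with miR-210 by more than the spread between probes, where 17.9% of all genes were. That count lies near the background.

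The synthetases lower by more than that spread were also 3 of 16, where 16.8% of all genes were, again near the background. TARS1, the threonyl enzyme, read 918 and 441, a log2 ratio of -0.93 or 1.9-fold lower, and on the deposited scale its ratio of -1.06 was past 2-fold. LARS1, the leucyl enzyme, read 139 and 88, a log2 ratio of -0.55. HARS1, the histidyl enzyme, read 80 and 51, a log2 ratio of -0.54. The other ten, WARS1 (448 and 473) and YARS1 (811 and 749) among them, lay within the spread between probes, from -0.12 for GARS1 (7252 and 5673), the glycyl enzyme, to 0.38 for QARS1 (64 and 77), the glutaminyl enzyme. Synthetases of the multi-synthetase complex were thus found both near 0, as EPRS1 (1824 and 1872, log2 ratio 0.21), KARS1 (1867 and 1822, log2 ratio 0.15), RARS1 (4489 and 4241, log2 ratio 0.10) and IARS1 (1626 and 1590, log2 ratio 0.15), and lower, as LARS1.

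Of 9 synthetases named ARS2, mitochondrial by their names, 6 were kept. Without the probes called HARS2 and VARS2, whose names also fit other genes, 5 were. AARS2, the mitochondrial alanyl enzyme, read 336 with ncRNA and 113 with miR-210. Its log2 ratio was -1.46, or 2.76-fold lower with miR-210, rank 68 from the lowest of all genes kept. Its cytosolic counterpart AARS1 read 1331 and 1408, a log2 ratio of 0.26 that lay within the spread between probes. MARS2 read 82 and 102 (log2 ratio 0.43), SARS2 202 and 211 (log2 ratio 0.17) and WARS2 151 and 153 (log2 ratio 0.13), all within the spread between probes. RARS2 (35 and 14), LARS2 (21 and 18) and TARS2 (34 and 39) were under the level filter.

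Some platform names fit more than 1 gene. The platform lists a probe HARS2 and another HARSL, and a probe VARS2 and another VARS2L. In RefSeq, HARSL and VARS2L are older names of HARS2 and VARS2, while HARS2 and VARS2 are also listed as older names of DTD1 and of the cytosolic VARS1. The probe called HARS2 read 420 and 389 (log2 ratio 0.017) and HARSL read 90 and 75 (log2 ratio -0.15). The probe called VARS2 read 50 and 36 (log2 ratio -0.38), and VARS2L, under the level filter, read 16 and 20 (log2 ratio 0.35). None of these 4 ratios passed the spread between probes, and without the probes called HARS2 and VARS2 the counts past 2-fold were the same. RefSeq also lists SARS as an older name of SARS2, QARS of EPRS1, GARS of GART, MARS of SLA2 and EIF2AK1 of EIF2AK2. The first 4 were taken here as SARS1, QARS1, GARS1 and MARS1, and EIF2AK1 as the current gene of that name, so the reading of SARS1 as the highest synthetase rests on that choice.

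**Figure D4:**
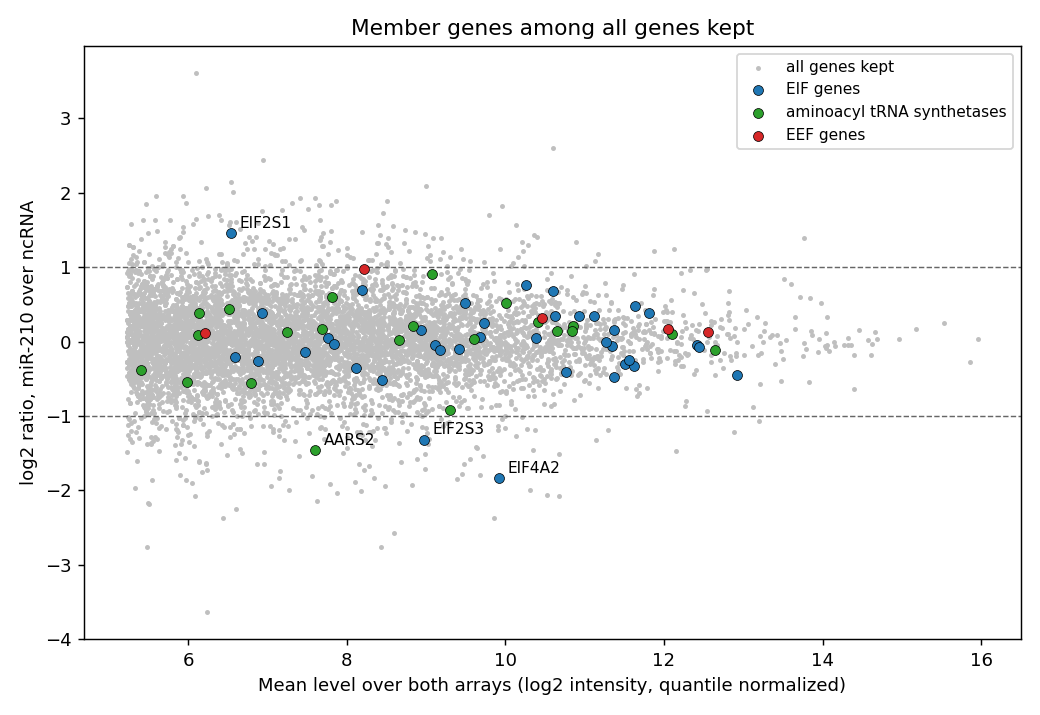
Log2 ratio of miR-210 over ncRNA against the mean level over both arrays (log2 intensity, quantile normalized) for all 6681 genes kept in grey and the 65 translation genes in colour; dashed lines mark 2-fold. The coloured points lie inside the grey cloud at every level, with EIF2S1 above and EIF4A2, AARS2 and EIF2S3 below the dashed lines.

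The promoters were looked at for sequences that the choice of genes did not use. TGATGNAA, the core of the amino acid response element that ATF4 binds with its partners, was searched on both strands of RefSeq promoters (GRCh38.p14), 250 bases before to 50 after each gene's start; 60 of the 73 genes had one. It was in 6 of 21 synthetase promoters (28.6%), those of AARS1, CARS1, IARS1, MARS1, NARS1 and TARS1, in 0 of 34 EIF promoters and in 0 of 5 EEF promoters, beside 3.67% of all 27305 promoters. The 27305 promoters were not matched to these genes by expression, gene type or base composition. A match does not show binding. The stretches of AARS1 (chr16:70289660-70289719, minus strand) and IARS1 (chr9:92293698-92293757, minus strand) are printed with the match in capitals, on the strand of the gene, because in these promoters the whole match lies before the gene's start.
AARS1: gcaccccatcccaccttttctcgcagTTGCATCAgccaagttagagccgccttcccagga
IARS1: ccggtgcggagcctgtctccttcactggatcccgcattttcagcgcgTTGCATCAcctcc
The 6 genes with a match did not share a direction: CARS1 and NARS1 stood at 0.60 and 0.51 and TARS1 at -0.93, with AARS1, IARS1 and MARS1 (70 and 69, log2 ratio 0.083) near 0. Their median log2 ratio was 0.20, against 0.16 for the 12 other kept synthetases with a promoter.

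Genes around these factors were described through 5 lists. Of the 14 kept genes for the eIF2 phosphatase and the amino acid response, 7 were above 0 and 7 under it, with a median log2 ratio of -0.020. Highest were ATF3, a transcription factor induced by stress, at 1.41 (69 and 170), and SLC7A11, a transporter of cystine, at 0.95 (185 and 331). ATF4, the factor whose translation rises when eIF2 is phosphorylated, read 929 and 722, a log2 ratio of -0.22. The pseudokinase TRIB3 stood at -0.68 (765 and 437) and the transcription factor CEBPB at -0.37 (1854 and 1268), so targets tied to this response lay on both sides of 0.

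In the list of mTORC1, S6 kinase and MNK signalling, 11 genes were kept, with a median of 0.13 and no gene past 2-fold. Of these, 7 were above 0, beside 50.8% of all genes. The S6 kinase RPS6KB1 stood at 0.83 (102 and 168) and the eIF4E kinase MKNK2 at 0.48 (86 and 111). MTOR itself stood at -0.25 (61 and 48) and RPS6KB2 at -0.14 (412 and 344). The 6 kept synthetase partners and synthetases outside the naming rule had a median of 0.34, with 4 above 0, beside the same 50.8%. FARSB, the beta subunit of the phenylalanyl enzyme, stood at 0.89 (322 and 554) and TARS3 at 0.57 (49 and 68), while GATB stood at -0.26 (50 and 39) and the scaffold AIMP1 at -0.20 (1584 and 1226). The brighter probe of the other phenylalanyl subunit, FARSA, stood at 0.14 (232 and 238) and its other probe at 0.91 (112 and 195).

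The list of termination, recycling and poly(A)-binding factors lay lower, with a median log2 ratio of -0.29 over 12 kept genes. Of these, 4 were above 0 (33.3%), beside 50.8% of all genes, and 8 were under it. The list also held DDX3X, DHX29, ABCF1 and GCN1, which are not factors of these kinds, so its median describes the list as drawn up. The poly(A)-binding protein genes PABPC3 and PABPC1 stood at -1.19 (4094 and 1566) and -0.83 (200 and 104). They are near-identical copies, and how far their probes read the same mRNA was not tested. The release factor GSPT1 stood at -0.73 (4433 and 2395). The helicase DDX3X was 2.04-fold higher (113 and 213) and PABPC4 stood at 0.46 (55 and 70), opposite to its relatives. Only PABPC3 (lower) and DDX3X (higher) were past 2-fold, 1 of 12 each way, beside 3.17% and 3.02% of all genes. The 7 kept mitochondrial translation factors had a median of -0.0029, with the elongation factors GFM1 at 0.77 (130 and 207) and TUFM at 0.45 (1020 and 1237), and MTRF1L and MRRF at -0.28 (427 and 324) and -0.19 (186 and 150).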

How the data were processed

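Cy5-labelled cRNA of each sample was measured on a Toray oligonucleotide array with 1 colour, per the labels. The deposited table holds linear intensity values for 24267 probes, whole numbers from -8 to 65496. The authors' scanner, background correction and scaling were not stated in the sources used. Values under 0 require that a background had been subtracted. No member was saturated (above 65000). Columns were mapped by the sample titles.

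The 24177 probes above 0 on both arrays were taken to log2 and quantile normalized. A probe was kept if its mean level reached the median of all probes, and a gene took its brightest kept probe. Platform symbols were updated through RefSeq synonyms (GRCh38.p14), which renamed 37 of the 78 member probes. The number of arrays limits the precision. Alternatives were other scalings (none, median, loess with a span of 0.3), an offset of 10, other level filters and the mean over probes. Normalization was tested on simulated data. Members and lists were chosen with earlier results of these data known. Named were the 10 highest and 10 lowest members, members with 2 probes, the extremes of each role and the 2 highest and 2 lowest genes of each list; other members were named to describe each complex. Python 3.11.15, numpy 2.4.6, pandas 2.3.3 and statsmodels 0.14.6 were used.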

Additional observations from a re-analysis of the deposited data

How the results depend on the processing

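EIF4A2, AARS2 and EIF2S3 were at least 2-fold lower under all 8 alternatives, and EIF2S1 at least 2-fold higher under each but the level filter at the 75th percentile, which removed it and left 0 genes higher. Without a level filter 5 genes were at least 2-fold lower, EIF4E3 and RARS2 being added, and 6.63% of all genes were. On the deposited scale the median log2 ratio of the members was -0.081, of the eIF3 subunits -0.22, of the eIF4 genes -0.15, of the synthetases named ARS or ARS1 -0.027 and of the amino acid response list -0.16; with median scaling that of the members was -0.0051. With the filter at the 75th percentile the median was 0.0049 for the 2 eIF4E-binding genes left, -0.14 for the amino acid response list, 0.14 for the synthetase partners and -0.53 for the termination and poly(A)-binding list. With the mean over probes that of the synthetase partners was 0.54. The other 126 values of such counts and medians moved by less than the probe spread over the root of the number of genes, or for counts by no more than 1.5 times. Genes near the level filter, such as EIF2S1, are limited by their signal over background. Leaving out the probes called HARS2 and VARS2 was an alternative chosen after seeing the data.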

Other observations

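CACGTG, the E-box bound by MYC with MAX, was in 9 of 34 promoters of initiation factor genes (26.5%) and in 2 of 21 promoters of synthetases (9.52%), where 7.43% of all promoters held it. The 9 were the eIF4 genes EIF4E, EIF4G1, EIF4B, EIF4H and EIF4A3, and EIF2B3, EIF3F, EIF3K and EIF5A2. The 9 kept EIF genes with the E-box had a median log2 ratio of 0.045, and the 23 without it -0.044. ACTTCCGG, a site of ETS family factors, was in 11 of 60 promoters of the translation genes (18.3%), beside 4.44% of all promoters. The 11 kept genes with it had a median log2 ratio of 0.25, and the 43 without it 0.10. Both motifs were searched on both strands of the same windows, the difference between groups was not tested, and a match does not show binding. The set of all promoters was again not matched to the translation genes.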
